A study of Mus musculus with 491 samples.

Results

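Genes of voltage-gated ion channels and of all other potassium channels were compared between epithelium-like, neuroblast-like and neuron-like single cells of the mouse embryo. Genes were chosen by symbol (Kcn, Scn followed by a digit, Cacna, Cacnb, Cacng or Hcn) and by level, with an FPKM that reached 1 in 1% or more of the cells, so the levels themselves selected the members. Of 138 genes with such a symbol and a row, 77 met this limit, among 19498 genes in all. Of the 77, 75 were grouped by symbol as channel subunits. The Cacng genes stand among the calcium channel auxiliary subunits, although Cacng4 encodes a protein that regulates AMPA receptors. The other two were taken in by their symbols alone: Kcnq1ot1, an RNA that is not translated, and Kcnrg, a soluble regulator that resembles part of a potassium channel.

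The study sorted tdTomato-positive single cells from otic vesicle plus periotic tissue of mouse embryos at E10.5. All cells share the genotype Pax2-Cre/+;Ai14-tdTomato/+, in which cells that have had Cre activity, and their progeny, are red, so the sort also takes cells outside the ear that come from Pax2-expressing tissue. There is no treated group, and the comparisons lie between cell classes made from marker genes. The cells fall into replicate 1 (237 cells, plates 1 to 3) and replicate 2 (254 cells, plates 4 to 6). The sources used here do not say what a replicate stands for (a litter, a day or a pool of embryos), so p-values may not extend beyond these 2 sets. They measure the deviations of class means between the 2 sets that remain once the shift shared by all classes is removed.

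The opening of voltage-gated sodium channels drives the upstroke of the action potential, voltage-gated potassium channels end it, and calcium channels link it to calcium entry and transmitter release. Two-pore-domain channels carry the potassium leak that sets the resting potential, and inward rectifiers hold it there. In each family a pore subunit forms the channel, while auxiliary subunits change its gating or bring it to the membrane. In the mature inner ear, potassium channels also recycle the potassium on which hair cells depend, and spiral ganglion neurons depend on fast potassium currents.

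Values are log2(FPKM + 1), in which FPKM counts the fragments of a gene per kilobase of its transcript, scaled to the total of the cell, and a gene is called found in a cell from an FPKM of 1 upward. Between 2552 and 6403 genes were found per cell, the depth in reads is unknown, and 75.0% of all values were listed at 0. Clustering on 79 marker genes gave 9 classes, each present in both replicates: 127 otic epithelium-like cells (Oc90 found in 62.2%, Epcam in 100%), 32 early neuroblast-like cells (Neurod1 in 93.8%, Neurog1 in 46.9%), 48 neuron-like cells (Stmn2 and Pou4f1 in 100%), 42 epibranchial neuron-like cells (Tlx2 in 88.1%) and 5 others. These others are 85 neural tube progenitor-like, 41 surface ectoderm-like and 23 mesenchyme-like cells, and 2 unnamed clusters: cluster 6 (38 cells, Stmn2 in 76.3% and Lhx1 in 39.5%) and cluster 2 (55 cells). Some wells repeated part of another well's profile: for 19 pairs of well rows, cells in the same plate column shared rare transcripts in both replicates, the lower cell holding a median of 1.70% to 13.5% of the level in the higher one. Such a source well existed for 337 cells, and 154 cells had none. Early neuroblast-like cells also held markers of differentiating neurons. The summed level of these 9 markers was 23.6 and 23.2 in replicates 1 and 2. It was 5.87 and 6.85 in otic epithelium-like and 58.5 and 56.0 in neuron-like cells. Of the 32 early neuroblast-like cells, 3 cells of replicate 2 held most of the endothelial markers. The summed level of the 7 endothelial markers was 0.49 and 4.75 in that class in replicates 1 and 2, and at most 0.31 in the otic epithelium-like and neuron-like classes. The calls in the 3 main comparisons were the same without these 3 cells.

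Most of the 77 genes were rare. They were found in a median of 2.85% of the cells, and 13 were found in at least 10%. At the lower limit, 8 members were found in 5 cells (1.02%), among them Cacna1d, Cacna2d2, Hcn2, Kcna1, Kcnab3, Kcnk3 and Kcnq5. Another 10 genes were found in 4 cells (0.815%) and so stayed outside, among them Cacng1, Cacng8, Hcn4, Kcne3, Kcnj3, Kcnk9, Kcnq3, Kcns3 and Kcnu1. Another shared feature that the rule did not use is length. The members' gene bodies had a median of 62201 bp (18065 bp over all 19498 genes), and their summed exons a median of 4943 bp (3588 bp over all genes).

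Families were represented unequally. Voltage-gated potassium channel pores supplied 21 of 40 genes with a row and potassium channel auxiliary subunits 12 of 16. Among the 21 are Kcng1 and Kcng2, silent subunits that form no channel alone and were grouped with the pores. Inward rectifiers supplied 4 of 15, leak channels 6 of 14, and calcium- or sodium-activated potassium channels 4 of 8. On the sodium side 5 of 9 pores and 3 of 4 beta subunits were members, and on the calcium side 7 of 10 pores and 10 of 16 auxiliary subunits. Of the 4 Hcn pacemaker genes 3 were members. Tests between classes used only the 23 members found in at least 5% of all cells, none of them an Hcn or a sodium channel beta gene.

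**Figure D1:**
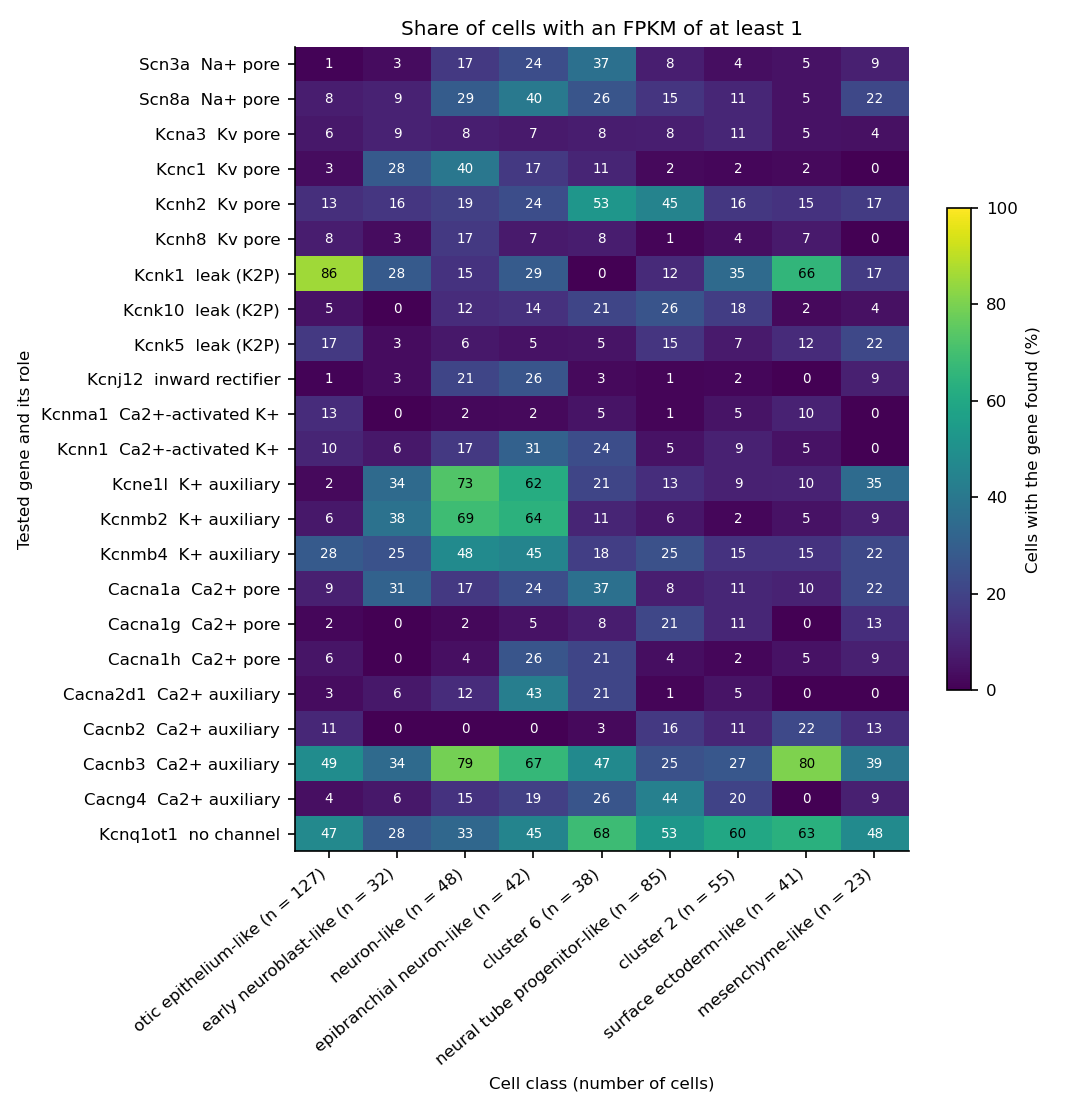
Share of cells (%) in which each of the 23 tested genes was found (FPKM of at least 1), with genes in rows ordered by role and the 9 cell classes in columns with their number of cells. Kcnk1 was found in 86% of the otic epithelium-like cells, Kcne1l and Kcnmb2 in 73% and 69% of neuron-like cells, and the 2 sodium channel pores Scn3a and Scn8a in at most 40.5% of any class.

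In the otic epithelium-like class 8 channel subunit genes were each found in at least 10% of the cells. This number was 8 in the early neuroblast-like, 6 in the surface ectoderm-like and 21 in the neuron-like class. A leak channel had the highest mean level, in otic epithelium-like as in surface ectoderm-like cells. Kcnk1, which encodes a two-pore-domain potassium channel (chromosome 8, 125995170 to 126030685, plus strand), was found in 109 of 127 cells (85.8%, exact 95% interval 78.5 to 91.4, which like all intervals here covers counting error only). Its FPKM over these cells ran from 0 to 278 with a median of 46.7, and the replicate means were 55.1 and 58.6. The next levels were those of Cacnb3, the beta subunit that brings calcium channel pores to the membrane (mean FPKM 11.53 and 9.53 in replicates 1 and 2), and of Kcnmb4, a beta subunit of the large-conductance calcium-activated potassium channel (5.81 and 12.51; 31.5% of its exon bases also lie in exons of other genes). The pore genes of the other families were lower on this per-length scale. The highest were Kcna3 among voltage-gated potassium pores (2.19 and 0.112), Kcnj16 among inward rectifiers (1.36 and 2.13) and Kcnma1, the pore of the large-conductance channel (1.58 and 1.43). Among calcium pores it was Cacna1h, a low-voltage-activated channel (0.197 and 1.16), among sodium pores Scn8a (0.19 and 0.515), and among sodium beta subunits Scn2b (0.269 and 0). An Hcn gene was found in 0 of 127 cells, which allows a share of up to 2.36%.

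In the neuron-like cells other genes were highest in most families. Kcne1l, a small single-span subunit also known as Kcne5 that reduces currents of Kcnq1 channels, had mean FPKM values of 66.6 and 45.1 in replicates 1 and 2. Kcnmb2, the beta subunit that gives large-conductance channels fast inactivation, followed with 36.9 and 40.7, and Cacnb3 with 28.3 and 30.8. The highest pore gene was Kcnj12, a strong inward rectifier (13.8 and 4.02), and then Kcnc1, a fast delayed rectifier of neurons that fire at high rates (4.17 and 6.47). Lower still were Scn9a, a sodium channel of sensory neurons (2.71 and 1.35), Kcnn1, a small-conductance calcium-activated channel (4.08 and 0.824), and Cacna1a, the pore of P/Q-type calcium channels (0.500 and 1.12). Hcn3 (0.617 and 2.51), the leak channel Kcnk10 (0 and 3.78) and the sodium beta subunit Scn3b (0.0377 and 1.26) were the highest of their families, with most of their level in replicate 2.

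The first comparison asked which channel genes differ between early neuroblast-like cells and the otic epithelium-like cells, their presumed source. All cells come from E10.5, so the classes are set side by side, and their descent was not tested. Kcnk1 was lower and Kcnmb2 and Kcnc1 were higher in the neuroblast-like cells. Of the 23 tested members 2 were higher (8.70%, against 1.48% of the 10186 genes tested) and 1 was lower (4.35%, against 3.53%) at an adjusted p below 0.05 in limma with Benjamini-Hochberg adjustment over all genes tested. The median difference over the 23 members was 0.02 and that over all genes tested -0.11 (log2 scale throughout). Because the 5% limit is counted over all cells, a gene can pass it through the class where it is high, so such counts are given as a description.

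Kcnk1 was found in 84.4% and 87.3% of the otic epithelium-like cells of replicates 1 and 2 and in 36.4% and 23.8% of early neuroblast-like cells. Mean log2(FPKM + 1) was 4.76 and 4.89 in the epithelium-like cells and 1.5 and 1.03 in the neuroblast-like cells, with no overlap between replicates of the 2 classes. The difference was -3.56 (SE 0.52, adjusted p = 0.000188, limma), and it was negative in 6 of 6 plates. Where Kcnk1 was found, its median FPKM was 61.8 in the epithelium-like and 26.2 in the neuroblast-like cells, and 8.01% of its exon bases also lie in exons of other genes.

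Kcnmb2 (chromosome 3, 31902507 to 32200180, plus strand) was found in 6.25% and 6.35% of epithelium-like cells and in 36.4% and 38.1% of early neuroblast-like cells. Means were 0.22 and 0.14 in the epithelium-like cells against 1.78 and 1.62, a difference of 1.52 (SE 0.33, adjusted p = 0.00637, limma), positive in 6 of 6 plates. Kcnc1 (chromosome 7, 46396497 to 46438704, plus strand) was found in 3.12% and 3.17% of the epithelium-like cells and in 36.4% and 23.8% of the neuroblast-like cells. Its means were 0.11 and 0.06 in the former against 1.3 and 0.97 in the latter. The difference was 1.05 (SE 0.22, adjusted p = 0.0053, limma), positive in 6 of 6 plates. Kcne1l had a difference of 1.64 (SE 0.57), positive in 6 of 6 plates, which missed the threshold (adjusted p = 0.119, limma). Kcnk1 alone was still called with only the 154 cells that had no source well (Kcnmb2 2.62, Kcnc1 1.19) and with classes set by marker gates in place of clusters (Kcnmb2 0.48, Kcnc1 0.28). With the log of the mean FPKM in place of the mean of logs Kcnk1 was not called (-2.31).

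Within the 32 early neuroblast-like cells, Kcnk1 and Kcnmb2 were found in different cells, a pair looked at after the values were seen. Kcnk1 alone was found in 9 cells, Kcnmb2 alone in 12, both in 0 and neither in 11. In the epithelium-like cells all 8 cells with Kcnmb2 also held Kcnk1, and in the neuron-like cells 5 of 33 did. Without Kcnmb2, Kcnk1 was found in 101 epithelium-like and 2 neuron-like cells, and neither gene was found in 18 and 13. Overlaps expected from the separate shares were not computed, so neither exclusion nor shared use is read from these counts. Cells of 1 class are not replicates, so no test was made.

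The second comparison was between neuron-like and early neuroblast-like cells. Of the 23 members 4 were higher in the neuron-like cells (17.4%, against 3.94% of all genes tested): Kcnmb2, which was already called in the first comparison, and Kcne1l, Cacnb3 and Kcnj12, which were not. Limma called 0 members lower (2.74% of all genes tested were), and 0 members were lower at an unadjusted p below 0.05. The median difference was 0.21 over the members and -0.02 over all genes tested.

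Cacnb3 (chromosome 15, 98630840 to 98644529, plus strand) was found in 45.5% and 28.6% of neuroblast-like cells and in 72.7% and 84.6% of neuron-like cells. Its mean log2(FPKM + 1) was 1.78 and 1.1 in the former and 3.71 and 3.96 in the latter, a difference of 2.39 (SE 0.46, adjusted p = 0.00267, limma), positive in 6 of 6 plates. Over all 48 neuron-like cells its FPKM ran from 0 to 153 with a median of 25.8. The epithelium-like cells, with means of 2.0 and 1.82, lay between these classes, and their difference from the neuroblast-like cells did not pass the test (-0.47, SE 0.46, adjusted p = 0.709, limma).

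Kcne1l (X chromosome, 142304752 to 142306294, minus strand, a single short gene body of 1543 bp) was found in 36.4% and 33.3% of the neuroblast-like and in 86.4% and 61.5% of the neuron-like cells. Means were 1.88 and 1.57 against 4.90 and 3.18, a difference of 2.32 (SE 0.57, adjusted p = 0.0156, limma), positive in 6 of 6 plates. The FPKM of the 48 neuron-like cells ran from 0 to 326 with a median of 40.6. Kcnmb2 was found in 68.2% and 69.2% of the neuron-like cells, with means of 3.6 and 3.76, and it was 1.98 higher than in the neuroblast-like cells (SE 0.33, adjusted p = 0.00062, limma), in 5 of 6 plates. Its FPKM over these cells ran from 0 to 143 with a median of 32.7.

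Kcnj12 (chromosome 11, 61022564 to 61071131, plus strand) was found in 9.09% and 0% of the neuroblast-like cells and in 27.3% and 15.4% of the neuron-like cells. Its means were 0.31 and 0 against 1.53 and 0.69, a difference of 0.95 (SE 0.25, adjusted p = 0.0224, limma), positive in 5 of 6 plates. Few cells carried it, but at a high level: in the 10 neuron-like cells in which it was found the median FPKM was 41.2. It was found in 28 cells of all classes, 10 neuron-like and 11 epibranchial neuron-like, and passed the 5% limit through these. For Kcnc1, by contrast, the clustered neuroblast-like and neuron-like cells differed by 0.22 (SE 0.22), which did not pass the test (adjusted p = 0.648, limma). A difference that does not pass the test does not show equal levels. With marker gates in place of clusters Kcnc1 was not called in the first comparison either, so no early onset is read from this. With only the cells without a source well none of these 4 genes was called (Cacnb3 2.70, Kcne1l 1.62, Kcnj12 0.78, Kcnmb2 0.75; 2 members were higher at an unadjusted p below 0.05). Kcnj12 alone was called with the log of the mean FPKM (Cacnb3 1.67, Kcne1l 1.62, Kcnmb2 1.24), Cacnb3 was not called with marker gates (0.96), and Kcne1l and Kcnj12 were not called with no filter on low values.

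**Figure D2:**
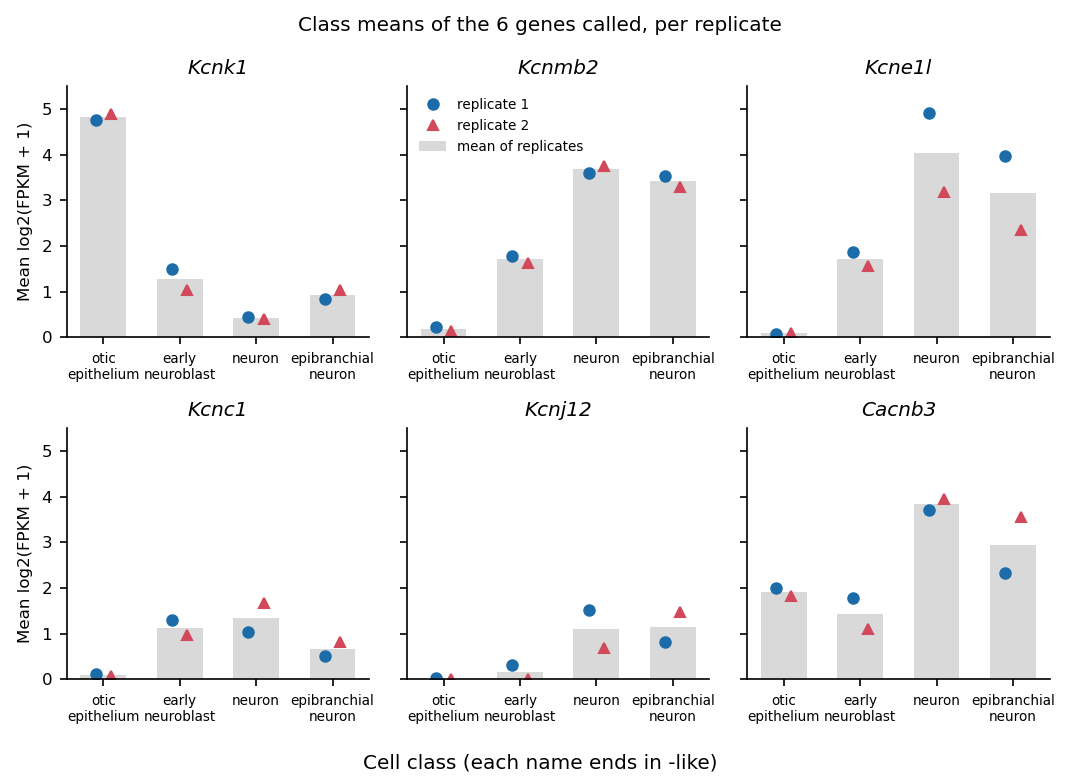
Mean log2(FPKM + 1) of the 6 genes called in the main comparisons, in 4 cell classes, with the mean of the 2 replicates as a bar and each replicate as a point. Kcnk1 is at 4.76 and 4.89 in otic epithelium-like and at 0.45 and 0.39 in neuron-like cells. Kcnmb2 is at 0.22 and 0.14 in otic epithelium-like, 1.78 and 1.62 in early neuroblast-like and 3.6 and 3.76 in neuron-like cells.

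The third comparison lies between neuron-like and otic epithelium-like cells and shares its cells with the first and the second. Of the 23 members 5 were higher (21.7%, against 5.27% of all genes tested) and 1 was lower (4.35%, against 7.98%). The median difference was 0.22 over the members and -0.15 over all genes tested. Kcne1l was 3.96 higher (SE 0.57, adjusted p = 4.23e-05, limma), with 4.84 in replicate 1 and 3.08 in replicate 2. Kcnmb2 was 3.5 higher (SE 0.33, adjusted p = 2.27e-07, limma), with 3.38 and 3.61, so the order of the 2 genes turned between replicates. Cacnb3 was 1.92 higher (SE 0.46), Kcnc1 1.27 higher (SE 0.22) and Kcnj12 1.09 higher (SE 0.25), all with the same sign in both replicates. Because Kcnj12 passed the 5% limit through the neuron-like and epibranchial neuron-like cells, its call is given as a description. Kcnk1 was 4.4 lower (SE 0.52, adjusted p = 4.54e-06, limma), and in neuron-like cells it was found in 7 of 48. Once values under 10% of the strongest cell in the same plate column had been set to 0, it was found in 2.08% of them, and in 79.5% of the epithelium-like cells. With only the cells without a source well, Kcne1l, Kcnmb2 and Kcnk1 were still called and the other 3 were not (Cacnb3 1.88, Kcnc1 0.96, Kcnj12 0.78), and Cacnb3 was not called with marker gates (1.25) or with the log of the mean FPKM (1.41).

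**Figure D3:**
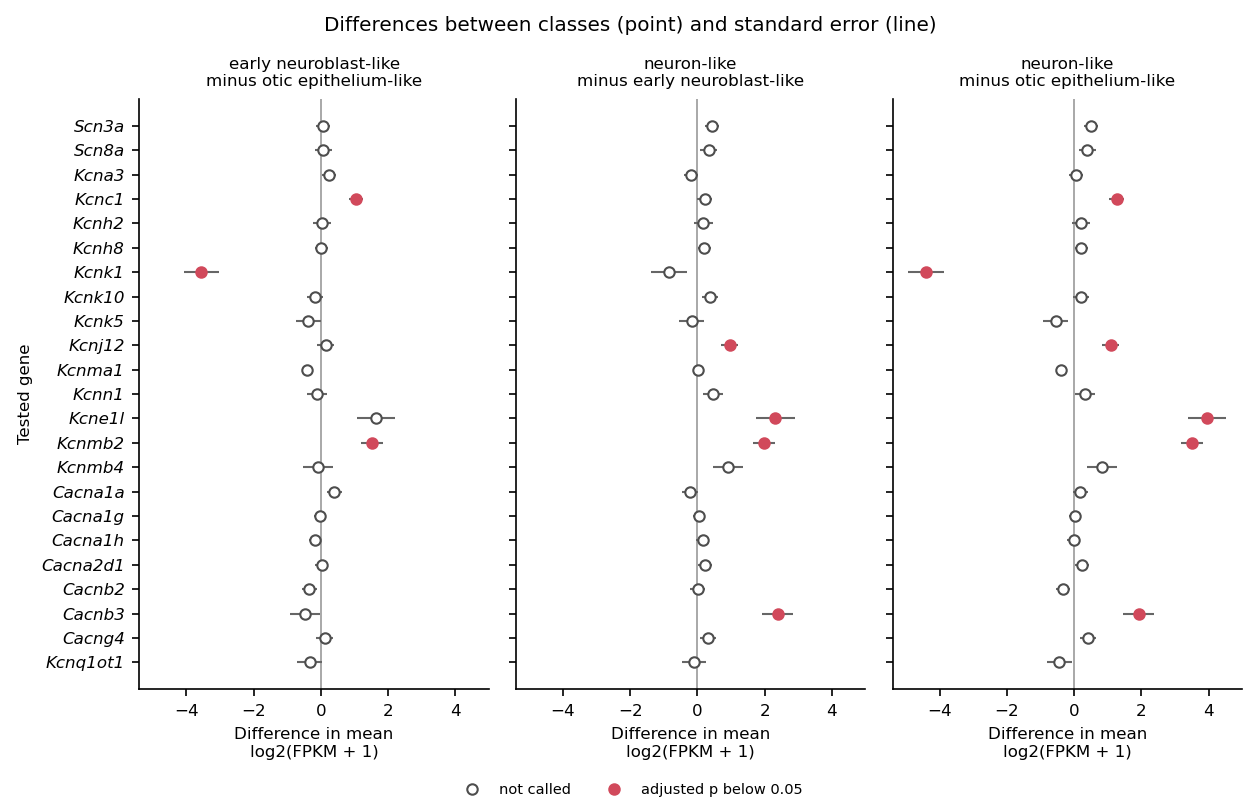
Difference in mean log2(FPKM + 1) between classes for each of the 23 tested genes in the 3 main comparisons, with the standard error from limma as a line and genes with an adjusted p below 0.05 filled. Most points lie within 1 unit of 0, and the largest differences are those of Kcnk1 (-3.56 and -4.4 against otic epithelium-like cells), Kcne1l (3.96) and Kcnmb2 (3.5).

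None of the 5 tested sodium and calcium pores passed the test in limma in these 3 comparisons, and 1 difference had an unadjusted p below 0.05. Scn3a, a sodium channel of embryonic neurons, was found in 1 of 127 epithelium-like cells and in 5 of 22 and 3 of 26 neuron-like cells of replicates 1 and 2, a difference of 0.50 (SE 0.22, unadjusted p = 0.0329, adjusted p = 0.15, limma). Scn8a, the main sodium channel of mature nodes and initial segments, differed by 0.40 (SE 0.25, adjusted p = 0.37, limma). Cacna1a, found in 9.09% and 42.9% of the early neuroblast-like cells, differed so much between the replicates that its sign against the epithelium-like cells was negative in replicate 1 (-0.06) and positive in replicate 2 (0.86). Cacna1g and Cacna1h, which carry low-voltage-activated calcium currents, differed from the epithelium-like cells by 0.02 and -0.01 in the neuron-like cells.

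Genes under the 5% limit hold most of the sodium and Hcn channels. With the limit at 1%, all 77 members and 12577 genes could be tested, and 9 members (11.7%) were higher in neuron-like than in otic epithelium-like cells, against 4.5% of all genes tested. The same limit chose the members, and a gene can pass it through the class where it is high, so nothing is read from this share. The 9 include 4 genes that the 5% limit left out, which, other than Scn9a, were named after their values were seen. Kcnh1, an ether-a-go-go type potassium pore, was found in 0 of 127 epithelium-like cells (up to 2.36%) and in 22.7% and 23.1% of the neuron-like cells, with a difference of 0.85 (SE 0.13). Scn9a was found in 0 of 127 epithelium-like and 0 of 32 neuroblast-like cells (up to 9.38%) and in 22.7% and 3.85% of the neuron-like cells, a difference of 0.47 (SE 0.13). Kcnh6 (0.44, SE 0.12) and Kcna6 (0.44, SE 0.13) were the others, each found in 5 of 48 neuron-like cells, and 39.6% of the exon bases of Kcna6 also lie in exons of other genes. Kcnh1 and Scn9a each had under 25 cells in all, so these calls rest on 11 and 6 neuron-like cells.

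Sequence upstream of the start is shown for the 4 called genes whose RefSeq window does not lie inside an annotated gene, Kcnk1 being lower and the others higher in neuron-like cells, and E-boxes of the kind that proneural bHLH factors bind were marked. The windows of Cacnb3 and Kcnj12 lie inside the annotated genes and are not shown; of these, a window of Cacnb3 holds 1 match and that of Kcnj12 none. The bases are those before the RefSeq start (GRCm38.p6) up to the first annotated exon, at most 250, written 5′ to 3′ on the gene's strand; Kcnmb2 and Kcne1l are shorter for that reason. They cover chr7:46396218-46396467 (Kcnc1, plus strand), chrX:142306295-142306448 (Kcne1l, minus strand), chr3:31902453-31902506 (Kcnmb2, plus strand) and chr8:125994852-125995101 (Kcnk1, plus strand). Capitals mark CAGATG or CAGCTG on either strand.
Kcnc1: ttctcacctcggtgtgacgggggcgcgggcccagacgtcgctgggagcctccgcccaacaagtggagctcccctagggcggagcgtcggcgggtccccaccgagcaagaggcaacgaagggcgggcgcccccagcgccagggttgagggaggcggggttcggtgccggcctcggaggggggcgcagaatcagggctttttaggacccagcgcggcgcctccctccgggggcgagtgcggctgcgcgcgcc
Kcne1l: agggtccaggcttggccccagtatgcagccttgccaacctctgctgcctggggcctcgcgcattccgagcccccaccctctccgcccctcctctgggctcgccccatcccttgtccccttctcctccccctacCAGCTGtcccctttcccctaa
Kcnmb2: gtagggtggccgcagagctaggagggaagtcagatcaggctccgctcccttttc
Kcnk1: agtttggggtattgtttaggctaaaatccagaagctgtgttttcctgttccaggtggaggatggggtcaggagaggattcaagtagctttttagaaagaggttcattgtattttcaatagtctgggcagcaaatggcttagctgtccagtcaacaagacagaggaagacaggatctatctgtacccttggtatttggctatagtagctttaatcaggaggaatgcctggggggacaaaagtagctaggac
Of the 4 stretches shown, that of Kcne1l holds 1 match, CAGCTG, and the other 3 hold none. The 250-base windows of Kcnc1 and Kcnk1 differ in base content, with 30 and 0 CG dinucleotides and a G and C share of 74.4% and 44.4%. RefSeq windows were matched by symbol for 55 members, and 16 of these (29.1%) hold CAGCTG, as do 13.7% of the tested genes' windows and 14.7% of all 27025 genes' windows. CAGATG is in 9 of 55 (16.4%), against 11.24% and 16.3%. CAGCTG reads the same on both strands, and the 2 motifs cannot overlap. A match of letters says nothing of binding in these cells.

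Epibranchial neuron-like cells form the sensory ganglia of visceral nerves, and against otic epithelium-like cells 9 of the 23 members were called (39.1%, against 12.7% of all genes tested), 8 of them higher. Kcnmb2 (3.23, SE 0.33), Kcne1l (3.07, SE 0.57) and Kcnj12 (1.12, SE 0.25) were among the 8, with Kcnk1 again lower (-3.89, SE 0.52). Cacna2d1, an auxiliary subunit of calcium channels that gabapentin binds, was 1.65 higher (SE 0.21, adjusted p = 1.19e-05, limma) and was found in 52.4% and 33.3% of the cells. Both tested sodium pores passed the test here, Scn8a with 0.89 (SE 0.25, adjusted p = 0.0241) and Scn3a with 0.84 (SE 0.22, adjusted p = 0.0122), as did Kcnn1 with 1.1 (SE 0.30) and Cacna1h with 0.65 (SE 0.19). Set directly against neuron-like cells, 1 member was called (4.35%, against 2.17%): Cacna2d1 was 1.42 higher (SE 0.21, adjusted p = 0.000273, limma), with means of 1.93 and 1.56 against 0.41 and 0.25, and higher in 4 of 6 plates.

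Cluster 6, whose cells hold Stmn2 and, in part, Lhx1, differed from neuron-like cells in more members. Against neuron-like cells 8 members were called (34.8%, against 6.6%), 5 of them lower: Kcnmb2 (-3.19, SE 0.33), Kcne1l (-3.09, SE 0.57), Cacnb3 (-2.0, SE 0.46), Kcnc1 (-1.08, SE 0.22) and Kcnj12 (-1.06, SE 0.25). Here too, Kcnj12 had passed the 5% limit through the neuron-like and epibranchial neuron-like cells. Higher were Kcnh2, the ether-a-go-go related potassium pore (1.6, SE 0.28), Scn3a (0.83, SE 0.22) and Kcnq1ot1. Kcnh2 was found in 20 of 38 of these cells and in 9 of 48 neuron-like cells. Against otic epithelium-like cells 5 members were called (21.7%, against 22.3%), a share near that of all genes. Kcnk1 was found in 0 of 38 cells, which allows a share of up to 7.89%.

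Among the remaining classes, neural tube progenitor-like cells differed from otic epithelium-like cells in 5 members (21.7%, against 6.66%). Cacng4, a transmembrane protein that regulates AMPA receptors, was 1.61 higher (SE 0.24), Kcnh2 1.17 (SE 0.28), Kcnk10 0.85 (SE 0.24) and Cacna1g 0.69 (SE 0.18), and Kcnk1 was 4.49 lower (SE 0.52). Surface ectoderm-like cells differed in 1 member (4.35%, against 4.18%), with Cacnb3 2.18 higher (SE 0.46), and Kcnk1 was found there in 66.7% and 65.2% of the cells. Mesenchyme-like cells (4.35%, against 6.04%) and cluster 2 (4.35%, against 2.06%) differed in Kcnk1 alone, which was lower in both. In cluster 2 Kcnk1 was found in 18.2% of the cells of replicate 1 and 59.1% of those of replicate 2, so that class was not uniform between replicates. Kcnk1, Cacnb3 and Kcnq1ot1 were the 3 members found in over 45% of the cells of both the otic epithelium-like and the surface ectoderm-like class.

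Counted per cell, more of the members that are channel subunit genes were found in neuron-like than in otic epithelium-like cells. A median of 3.5 and 4 of the 75 channel subunit genes was present per otic epithelium-like cell of replicates 1 and 2, 4 and 3 per early neuroblast-like cell, 7 and 6 per neuron-like cell and 6 and 9 per epibranchial neuron-like cell. The spread between cells was wide: neuron-like cells ran from 0 to 15 and epithelium-like cells from 0 to 10. The number of all genes found did not move the same way, with medians of 4798.5 and 4728 in the epithelium-like and 4567.5 and 4728.5 in the neuron-like cells. At an FPKM of at least 5 the medians over both replicates were 3 per epithelium-like, 2.5 per neuroblast-like, 5 per neuron-like and 5 per epibranchial neuron-like cell. The members were chosen by their level in these same cells, and a gene can pass that limit through the class where it is high. The count is therefore a description, and no p is given, since it runs over the members themselves.

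**Figure D4:**
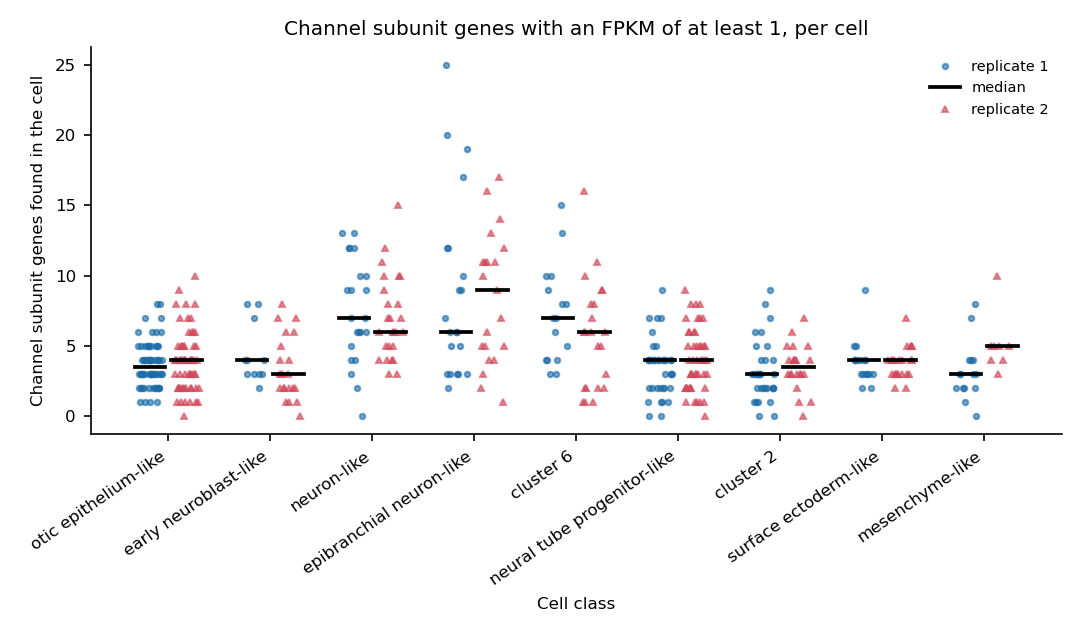
Number of the 75 channel subunit genes found (FPKM of at least 1) in each cell, by cell class and replicate, with the median of each replicate as a black line. Medians are 3 to 4 in otic epithelium-like and early neuroblast-like cells and 6 to 9 in the neuron-like and epibranchial neuron-like cells, with wide overlap of single cells.

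Action potentials rest on sodium or calcium pores together with potassium pores, and the shares of cells with these families were summarized after the values were seen. The members hold 5 sodium, 21 voltage-gated potassium and 7 calcium pore genes, so shares of different families cannot be set against each other. The potassium genes include the silent subunits Kcng1 and Kcng2, so a cell can be counted through one of these alone. The members were also chosen by their level in these same cells. At least 1 sodium pore gene was found in 14 of the 127 otic epithelium-like cells (11.02%, exact 95% interval 6.16 to 17.8), 4 of 32 early neuroblast-like cells (3.51 to 29.0), 23 of 48 neuron-like cells (47.9%, 33.3 to 62.8) and 25 of 42 epibranchial neuron-like cells (59.5%, 43.3 to 74.4). At least 1 voltage-gated potassium pore was found in 43.3%, 56.2%, 81.2% and 69.0% of the same classes, and at least 1 calcium pore in 18.1%, 31.2%, 31.2% and 54.8%. The early neuroblast-like shares differed between replicates 1 and 2, at 9.09% and 42.9% for calcium pores and 72.7% and 47.6% for potassium pores. A sodium, a voltage-gated potassium and a calcium pore were all found in 1 of 127 epithelium-like cells, 0 of 32 neuroblast-like cells (up to 9.38%), 8 of 48 neuron-like cells (16.7%, 7.48 to 30.2) and 15 of 42 epibranchial neuron-like cells (35.7%, 21.6 to 52.0). Outside these classes, a sodium pore was found in 27.1% of neural tube progenitor-like, 55.3% of cluster 6, 18.2% of cluster 2, 9.76% of surface ectoderm-like and 21.7% of mesenchyme-like cells. A pore of each family was found in 9.41%, 34.2%, 0% (up to 5.45%), 0% (up to 7.32%) and 4.35% of the same classes. An undetected gene in a single cell may be present below detection, so these shares are not shares of cells that lack a channel.

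**Figure D5:**
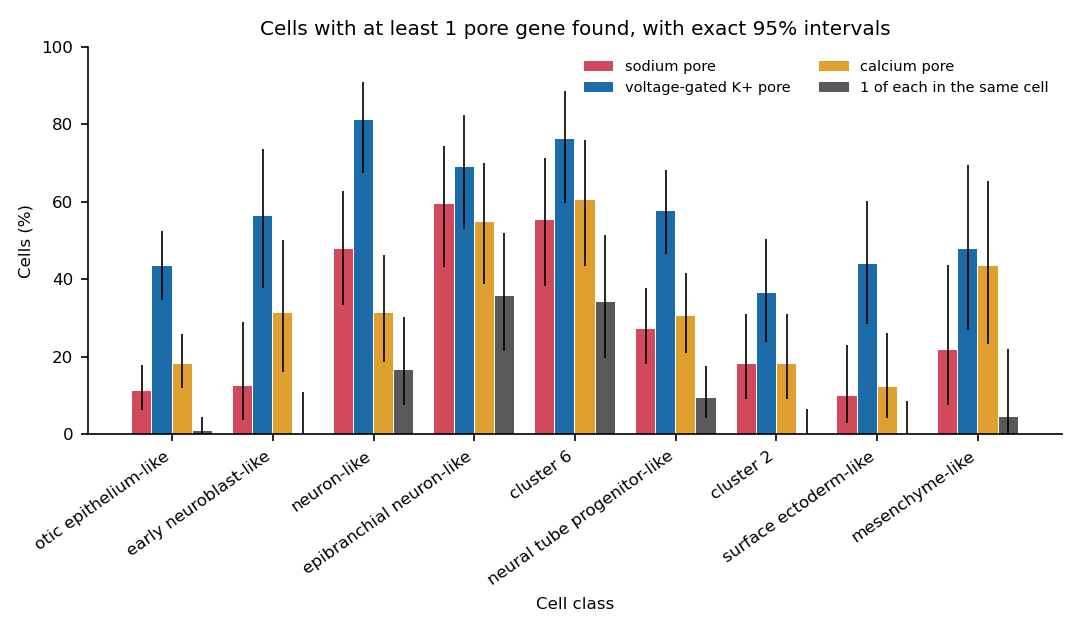
Share of cells (%) with at least 1 sodium pore gene, voltage-gated potassium pore gene or calcium pore gene found, and with 1 of each in the same cell, by cell class, with exact 95% intervals that cover counting error only. The sodium pore share is 11.02% in otic epithelium-like, 47.9% in neuron-like and 59.5% in epibranchial neuron-like cells.

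For 2 auxiliary subunits, chosen after the values were seen, the cells were also searched for the pore. Kcnmb2 modifies the pore that Kcnma1 encodes. Of 33 neuron-like cells with Kcnmb2 none also had Kcnma1, but Kcnma1 was found in only 1 of 48. In the epithelium-like cells the order was the other way, with Kcnma1 alone in 16 cells, Kcnmb2 alone in 8 and both in 0. Where a gene is found in so few cells an overlap of 0 says little, and a gene not found may be present below detection. Kcnma1 differed by -0.39 between neuron-like and otic epithelium-like cells (SE 0.16, adjusted p = 0.132, limma) and was called when classes were weighted by their number of cells. Kcnq1, the partner of Kcne subunits, was found in 0 of 48 neuron-like cells (up to 6.25%), while Kcne1l was found in 35. Kcnmb2 and Kcne1l were found together in 23 neuron-like cells, Kcnmb2 alone in 10 and Kcne1l alone in 12.

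Other genes of electrical excitability were set beside the members: 45 genes for the sodium pump, the axon initial segment, transmitter receptors and their control, of which 43 have a row and 24 were tested. Between neuroblast-like and epithelium-like cells limma called 1 of these 24, which was lower, a share near the 3.53% of all genes tested. This was Rest, the repressor that holds many channel genes silent outside neurons (-1.96, SE 0.40, adjusted p = 0.0039, limma). Rest was lower in 4 of 6 plates and higher in 2, and an effect of it on the members was not tested. In neuron-like against neuroblast-like cells 7 of 24 were higher, against 3.94% of all genes tested, and 0 were lower, against 2.74%. Among the 7 were the sensory neuron receptor P2rx3 (2.70, SE 0.31), Ank2, an adaptor of the membrane skeleton (1.68, SE 0.46), the glutamate receptor Gria4 (0.90, SE 0.22) and Cntn1, an axonal adhesion molecule (0.84, SE 0.17). In neuron-like against epithelium-like cells 7 of 24 were higher, against 5.27% of all genes tested, with P2rx3 (3.52, SE 0.31) and Ank2 (2.26, SE 0.46) among them. Lower were 2 of 24, a share near the 7.98% of all genes: Rest (-3.14, SE 0.40) and Atp1b3, a sodium pump subunit (-1.56, SE 0.43). Rest was found in 84.3%, 46.9% and 10.42% of epithelium-like, neuroblast-like and neuron-like cells, and P2rx3 in 3.94%, 21.9% and 75.0%.

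Channels known from the mature ear were mostly at the edge of detection at this stage. Of 13 such genes 11 are members, and 2 of these, Kcnma1 and Scn8a, were tested. Kcnj10 and Kcna10 were each found in 1 cell and so are no members. Kcnq1 and Kcne1, which secrete potassium into endolymph, were found in 2 and 4 of the 127 otic epithelium-like cells. Kcnj16 was found in 5 of these cells, at a median FPKM of 56.5 where found. Kcnn2, the efferent-coupled channel of hair cells, was found in 5, and Cacna1d, the calcium channel of hair cell synapses, in 1. Hcn2 and Kcnk3 were found in 0 of 127 cells (up to 2.36% each). Kcnma1, the large-conductance pore of hair cells, was found in 16, and Scn8a in 10.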

How the data were processed

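Values were the authors' deposited log2(FPKM + 1) per gene and cell, 1 column per cell. The log scale was read from the values: 99.9% of those above 0, once raised back, had 6 digits (tolerance 1e-06, relative). Per the submitters' processing notes, which name no versions, the build was mm10 and the tools included TopHat, Bowtie2, Bowtie, Cufflinks, SAMtools, cutadapt and FastQC. No read counts were used, so depth is unknown, and 2552 to 6403 genes per cell reached an FPKM of 1.

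Of 19659 rows, 19634 matched an identifier of GENCODE M21 (GRCm38). The 132 rows of 63 repeated identifiers and 29 rows with no or a shared symbol were left out. The members and lists were chosen with earlier results of these data known. Of 104 marker genes 102 have a row, and the 79 found in at least 1% of cells were scaled, clipped at 10, reduced to 15 principal components and clustered (15 neighbours, Leiden, resolution 1.0) with scanpy 1.11.5 and leidenalg 0.10.2. Clusters were named from these markers, since the labels hold no cell class.

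Cells are not replicates, so values were averaged per class and replicate. The 18 means were fitted with limma 3.58.1 (R 4.3.3), with class and replicate as terms and an intensity trend, over the 10186 genes other than markers that reached an FPKM of 1 in 5% or more of the cells. Calls were made at p below 0.05 after Benjamini-Hochberg adjustment. The script was checked on data with known answers. The replicate stood as a block because both replicates hold every class, and the correlation of their deviations between classes was at most 0.09 (36 pairs of classes). Shares have exact Clopper-Pearson intervals, and the limit for a share of 0 is 3 cells of the total.

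Named were the 10 largest called members per direction and comparison, the highest member of each role in 2 classes, the genes known from the mature ear, the 5 largest called of the other excitability genes, and the members beside the 1% limit. Some genes under this rule are not reported here. Alternatives changed the pseudocount, filter, scaling, weights, units, clustering and well transfer. Promoter sequences are from RefSeq (GRCm38.p6).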

Additional observations from a re-analysis of the deposited data

How the results depend on the processing

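Of 188 differences of called members recomputed under the alternatives to the 3 main comparisons, 168 stayed called, 20 were no longer called and 0 changed sign. With only the cells that have no source well, limma called 0 members higher in neuroblast-like than in epithelium-like cells (3 at an unadjusted p below 0.05), 0 in neuron-like than in neuroblast-like (2) and 2 (8.70%) in neuron-like than in epithelium-like; of all genes tested 0.599%, 0.393% and 1.69% were called. With marker gates 0 were higher in the first comparison (0 unadjusted), against 0.677% of all genes. With the log2 of the mean FPKM plus 1, 0 were lower in the first (2 unadjusted), against 1.96% of all genes, and 1 (4.35%) was higher in the second, against 2.09%. With a filter at 1% of cells 9 of 77 were higher in the third (11.7%, against 4.5%) and 1, Kcnq1, was lower in the second (1.3%, against 2.0%). With no filter 4 of 77 were lower in the first (5.19%, against 2.51%), 1 in the second (1.3%, against 1.28%) and 3 in the third (3.9%, against 5.28%), and 8 were higher in the third (10.39%, against 3.6%). Weights by cell number gave 2 lower in the third (8.70%, against 14.7%). Without the replicate block the counts were the same (2 higher and 1 lower, 4 and 0, 5 and 1). Resolution 0.6 gave no neuroblast cluster, so 2 comparisons had no value there. Setting values under 20% of a linked source well to 0, chosen after seeing the data, changed no call. Leaving out a replicate leaves no test; in 88 such differences 0 changed sign. Depth in reads is unknown, so a gene not found is not shown to be absent.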

Other observations

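Kcnq1ot1, which is transcribed antisense to Kcnq1 and silences neighbouring genes on the paternal chromosome, was the member found most widely, in 245 cells (49.9%). No strand information was used, so its values cannot be told apart from sense transcripts within its span. It was found in 75.0% and 63.6% of cluster 6 cells of replicates 1 and 2 and in 40.9% and 26.9% of neuron-like cells, and was 1.35 higher in cluster 6 on the log2 scale (SE 0.37, adjusted p = 0.0278, limma). Kcnq1 itself was found in 6 cells. In cluster 2, Kcnq1ot1 was found in 72.7% and 40.9% of the cells, another gene besides Kcnk1 that differed between the replicates of that cluster. Kcnrg was found in 8 cells, 4 of them in cluster 6.

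Cacna1e, the pore of R-type calcium channels, was found in 10 of 42 epibranchial neuron-like cells (28.6% and 19.0% in the replicates), 1 of 48 neuron-like cells and 0 of the 127 otic epithelium-like cells. Scn1a was found in 5 of 38 cells of cluster 6 and in 0 of 48 neuron-like cells (up to 6.25%). Kcna2 and Kcnc2, both pores of fast neuronal potassium currents in the adult, were found in 10 and 8 of the 127 otic epithelium-like cells and in 1 and 0 of 48 neuron-like cells. These genes lie under the 5% limit, were named after their values were seen and were not tested in the main comparisons.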
